A study of Mus musculus with 6 samples.

Results

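The tricarboxylic acid cycle enzymes described here are 9 nuclear genes of mitochondrial matrix proteins, picked by symbol from a count table of 34945 symbols: Cs, Idh3a, Idh3b, Idh3g, Ogdh, Dlst, Sucla2, Fh1 and Mdh2. All 9 were among the 13485 genes abundant enough to be tested. RNA sequencing was done on left ventricular myocardium of 3 wild-type mice and 3 mice with a 4SA-Rad knock-in allele, all labelled as strain C57BL/6N, with age and sex not given in the sources used here. Rad is a small GTP-binding protein that holds back the cardiac L-type calcium channel, and the series title ties its phosphorylation to the fight-or-flight response of the heart. The sources do not say what the allele's name stands for, whether it was carried on 1 or both chromosomes, or whether the mice were littermates.

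The cycle oxidises the acetyl group of acetyl-CoA to carbon dioxide in the mitochondrial matrix and hands the electrons to the respiratory chain as NADH and reduced flavin. Heart muscle, which draws most of its ATP from mitochondria, runs this cycle at a high rate, and calcium ions that enter the matrix are known to stimulate isocitrate dehydrogenase and oxoglutarate dehydrogenase. Both of those enzymes are represented among the members. The comparison between genotypes asks whether transcripts of the cycle differ in ventricles that carry the altered brake on the calcium channel.

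None of the 9 members rose or fell. In edgeR's quasi-likelihood test with Benjamini-Hochberg adjustment, 0 of 9 passed an adjusted p of 0.05, against 9.01% of all tested genes (1215 of 13485). At an unadjusted p below 0.05 the count was 1 of 9 (Idh3a) against 25.2% of all tested genes, and DESeq2 and limma-voom also called 0 members. Point estimates ran from -6.39% (Idh3a) to 5.26% (Fh1) in knock-in relative to wild-type, with 6 members above and 3 below no change. The median log2 fold change of the members was 0.014, beside 0.0036 over all tested genes, and the median size of the change regardless of sign was 0.031 beside 0.13. Most tested genes are less abundant and measured less closely. Among tested genes at least as abundant as the lowest member, the median size was 0.091.

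Depth was high for these genes, since every member had between 4650 (Fh1) and 59919 (Ogdh) estimated counts in each library. The libraries held 24761124 to 32669182 counts in wild-type and 35259459 to 39627397 in knock-in, so all knock-in libraries were deeper. Transcripts of the mitochondrial genome took 53.1% to 56.9% of the counts, with overlapping ranges in the genotypes. All 10 cardiomyocyte markers looked up were abundant. Of these, Ckm and Actn2 fell (edgeR adjusted p = 0.0103 and 0.0442) and 8 did not pass, and ranges did not overlap for 4 in each direction. Of all tested genes 9.01% were called and 29.4% had ranges that did not overlap, counting either direction. Among the 318 tested genes at least as abundant as the lowest member, these shares were 21.7% and 47.5%. The summed level of the cardiomyocyte markers, of which Myh6 makes up the largest part, in TMM-scaled counts-per-million (CPM) was 44840 ± 1130 for wild-type mice and 44880 ± 225 for knock-in mice (mean ± SD, n = 3 each). The atrial markers Myl7, Myl4 and Sln summed to 4.95 to 71.2 CPM among wild-type libraries and to 38.4 to 70.6 CPM among knock-in libraries. Of 7 endothelial markers 2 fell (Esam and Flt1) and 5 did not pass, and their sum was 495 to 514 CPM in wild-type and 463 to 513 CPM in knock-in. Of 5 macrophage markers 2 fell and all had estimates below 0, with sums of 58.9 to 65.4 CPM in wild-type and 48.4 to 56.8 CPM in knock-in. For the endothelial and macrophage counts, the share of all tested genes called lower was 5.01%. No fibroblast, smooth muscle, pericyte or adipocyte marker tested was called. The part of other cell types in the results below was not tested. Summed haemoglobin and Alas2 transcripts ranged from 585 to 2225 CPM in wild-type and from 602 to 5298 CPM in knock-in. Each library is a separate mouse. The edgeR p-values set the difference between genotypes against the spread between these mice, with an error that borrows from other genes.

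Values below are CPM scaled by TMM, a factor per library that assumes most genes do not differ, and are given in the order of replicates 1, 2 and 3. A fold change is knock-in over wild-type from the fit over all genes, and its interval is the 95% interval of that fit.

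Cs encodes citrate synthase, which joins acetyl-CoA to oxaloacetate and is widely used as a marker of mitochondrial content. It stood at 829.5, 797 and 802 CPM in wild-type and at 808, 831 and 814 CPM in knock-in. The ranges overlapped, and the estimate was 1.01% higher in knock-in with an interval of -5.21% to 7.64% (edgeR adjusted p = 0.866). In bulk tissue, fewer cells of a type and less RNA per cell cannot be told apart, and this holds for each level given here.

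Isocitrate dehydrogenase of the NAD-dependent kind is built from the catalytic alpha subunit (Idh3a) and the beta and gamma subunits (Idh3b, Idh3g). Idh3a was at 353, 347 and 338 CPM in wild-type and at 330.1, 318 and 324 CPM in knock-in. All 3 knock-in libraries lay below all 3 wild-type libraries. The estimate was -6.39%, with an interval of -12.2% to -0.194%, and it did not pass after adjustment (unadjusted p = 0.0445, edgeR adjusted p = 0.186). Idh3b was at 365, 353 and 361 CPM in wild-type and at 362, 359 and 361 CPM in knock-in. Its libraries interleaved, and the difference was estimated at 0.247% with an interval of -5.72% to 6.60%. Idh3g, on the X chromosome, was at 232, 245 and 233 CPM in wild-type and at 229.9, 247 and 247.5 CPM in knock-in. One knock-in library was the lowest of all 6 and the other pair were the highest, and the interval of the difference ran from -5.12% to 9.70%.

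Ogdh and Dlst encode the first and the second component of the oxoglutarate dehydrogenase complex, the step that yields succinyl-CoA. Ogdh had the highest CPM of the 9 members, at 1595, 1552 and 1465 in wild-type and 1385, 1479 and 1485 in knock-in. Wild-type replicate 3 lay within the knock-in range, so the groups overlapped. The estimate was 5.70% lower in knock-in with an interval of -12.6% to 1.70% (edgeR adjusted p = 0.323). Dlst, the lipoate-bearing succinyltransferase, was at 355, 345 and 336 CPM in wild-type and at 351, 355 and 354 CPM in knock-in. The knock-in libraries sat together at the upper end of the wild-type range, and the interval was -4.08% to 9% (edgeR adjusted p = 0.686).

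Sucla2 encodes the ATP-forming beta subunit of succinyl-CoA ligase. It was at 339.5, 345 and 351.5 CPM in wild-type and at 355, 339 and 327 CPM in knock-in. The knock-in libraries held both the highest and the lowest value, and the interval of the difference was -8.05% to 5.70%.

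Fh1, the mouse fumarase gene, hydrates fumarate to malate. Its level was 181, 180.0 and 179.8 CPM in wild-type and 190.1, 191 and 188 CPM in knock-in. All knock-in libraries were above all wild-type libraries, by more than the narrow spread within either genotype. In the fit across genes, whose error borrows from other genes of like abundance, the estimate was 5.26% higher with an interval of -0.869% to 11.8%, and it did not pass (edgeR adjusted p = 0.275). Mdh2, mitochondrial malate dehydrogenase, closes the cycle at oxaloacetate and also serves the malate-aspartate shuttle. It was at 578.5, 538 and 537 CPM in wild-type and at 550.3, 572 and 567 CPM in knock-in. Wild-type replicate 1 exceeded every knock-in library and the other wild-type pair lay below them, with an interval of -4.81% to 9.66%.

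**Figure D1:**
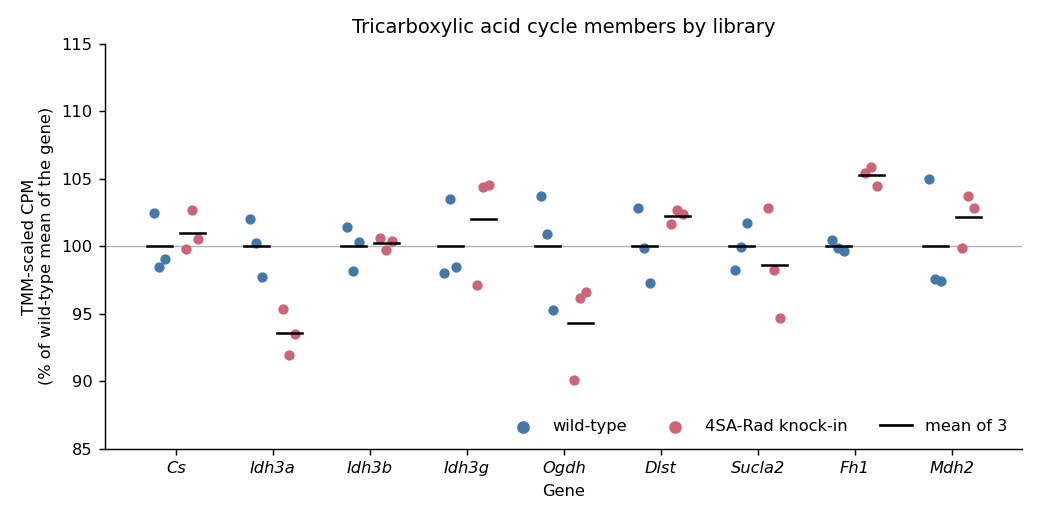
Each dot is a library, plotted as the TMM-scaled CPM of the gene on the vertical axis in percent of that gene's wild-type mean, for 3 wild-type and 3 4SA-Rad knock-in mice; bars mark the mean of 3. The groups separate for Idh3a (lower in knock-in) and Fh1 (higher) and overlap for the other 7 members.

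The ranges of the 3 and 3 libraries thus failed to overlap in 2 of 9 members, 1 in each direction, while 29.4% of all tested genes had ranges that did not overlap (14.3% higher and 15.1% lower in knock-in). Genes of this abundance are measured closely. Among the 318 tested genes with a mean CPM of at least 185 (that of Fh1, the lowest member), 21.7% were called and 47.5% had ranges that did not overlap. The smallest called change in that class had a log2 size of 0.15, whereas the largest estimate among the members was 0.095 in size. The summed CPM of the 9 members was 4712 ± 113 in wild-type and 4640 ± 68.8 in knock-in (mean ± SD, n = 3 each), with overlapping ranges.

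The sign of 6 of the 9 estimates depended on scaling, turning below 0 with library size alone, while Idh3a, Ogdh and Sucla2 were below 0 under every scaling run. As a share of all counts the members took 0.501%, 0.496% and 0.459% in wild-type and 0.427%, 0.451% and 0.475% in knock-in. With library size alone in place of TMM the median log2 fold change of all genes moved to -0.078 and that of the members to -0.068. No member passed there either (smallest edgeR adjusted p = 0.0829).

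Counts from genes of different length cannot be ranked directly, so levels between members were compared as CPM per kb of the longest protein-coding transcript in GENCODE M21. On that scale Mdh2 was highest, at 378.5 ± 16.3 in wild-type and 387 ± 7.72 in knock-in (mean ± SD, n = 3 each). Ogdh followed at 372.5 ± 16.1 and 351 ± 13.6, and the ranges of these genes over the 6 libraries overlapped. Next came Cs (mean of all 6 libraries 278), Idh3b (223), Idh3g (179.7), Sucla2 (154), Idh3a (129.9) and Dlst (126.5), and Fh1 was lowest at 70.2. Each of these neighbours was separated by its range over the 6 libraries except Idh3a and Dlst, which overlapped. The top exceeded the bottom 5.45-fold. Among other enzymes of the cycle, Idh2 (556) lay above all members on the scale of CPM per kb, and Dld (102) and Suclg1 (105) lay between Dlst and Fh1. Sdha (302), Sdhb (305.5) and Sdhd (139.6) also lay within the range of the members. Suclg2 (36.95) and Sdhc (44.4) lay below Fh1. The transcript that each count came from is not known, and with the union of all annotated exons as the length the order changed in 2 places: Ogdh ranked above Mdh2, and Fh1 above Dlst.

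**Figure D2:**
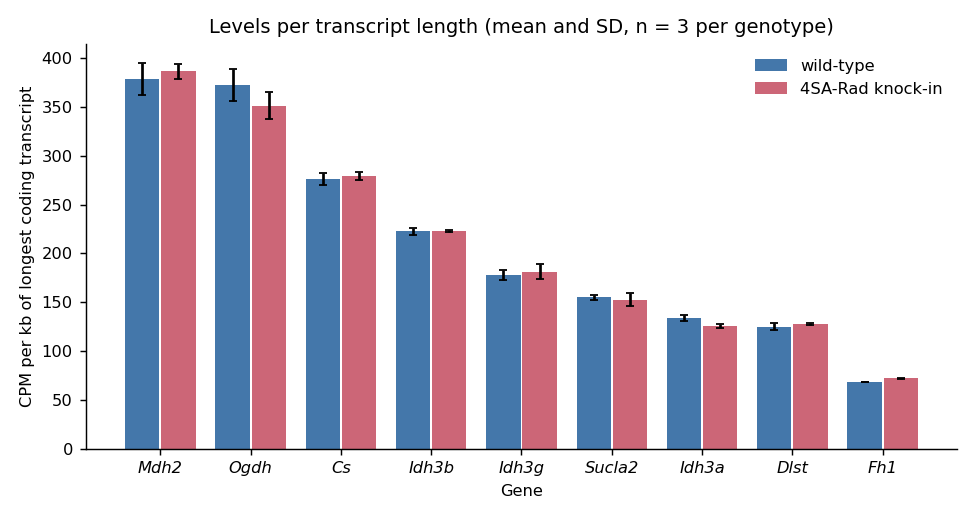
Bars give the mean level in CPM per kb of the longest coding transcript, with SD over 3 libraries per genotype, from Mdh2 at the left to Fh1 at the right. Mdh2 and Ogdh lead in both genotypes and Fh1 is lowest at 70.2 over all libraries.

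In the GRCm38 annotation the members lie on 9 different chromosomes: Fh1 on chromosome 1 (175600374 to 175625635), Idh3b on 2 (130279309 to 130284547), Mdh2 on 5 (135778480 to 135790398), Idh3a on 9 (54586334 to 54604661), Cs on 10 (128337734 to 128362479), Ogdh on 11 (6291633 to 6356642), Dlst on 12 (85110833 to 85134845), Sucla2 on 14 (73525319 to 73596142) and Idh3g on X (73778963 to 73786897). Idh3b and Fh1 have exons under the span of a gene on the opposite strand, and whether counting used strand is not given. The opposite genes had few counts beside the member: 343 to 595 for Nop56 at Idh3b and 4 to 14 for Kmo at Fh1. For near-identical copies, transcripts with at least 90% identity over 200 bases were found for Cs and for no other member. They were the retrogene Csl and the pseudogene Gm48254, which had at most 3 and 1 counts in a library, against 21290 or more for Cs.

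Promoter windows (250 bases before to 50 after an annotated start, RefSeq, GRCm38.p6) were on hand for 8 of the 9 members, Idh3a being the exception. They were searched on both strands for CCGGAAG, the core bound by ETS factors such as GABPA, for AAGGTCA, the half-site of oestrogen-related receptors, and for TGCGCA, the core of sites for the respiratory factor NRF1, because these factors are known to act at genes of mitochondrial enzymes. CCGGAAG was found in 3 of 13 member windows, beside 8.86% of all 32851 windows, AAGGTCA in 1 of 13 beside 4.72%, and TGCGCA in 3 of 13 beside 7.76%. The matches are printed 5′ to 3′ on the strand of the gene, with the motif or its reverse complement in capitals, to show how close to the start they lie.
Idh3b, chr2:130284435-130284471, minus strand: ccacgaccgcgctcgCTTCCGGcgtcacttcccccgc
Dlst, chr12:85110819-85110855, plus strand: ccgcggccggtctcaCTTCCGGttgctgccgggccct
Idh3g, chrX:73786980-73787016, minus strand: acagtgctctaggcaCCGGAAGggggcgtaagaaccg
Ogdh, chr11:6292150-6292186, plus strand: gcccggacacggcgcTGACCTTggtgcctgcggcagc
Ogdh, chr11:6292527-6292562, plus strand: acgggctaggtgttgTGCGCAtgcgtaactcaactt
Mdh2, chr5:135778642-135778677, plus strand: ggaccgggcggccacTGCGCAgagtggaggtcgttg
The Idh3b match begins 5 bases before the RefSeq start and the Idh3g match 104 bases before it, while those of Dlst and Mdh2 lie just after the start. Ogdh has 6 windows, which overlap in part: its TGACCTT lies 5 bases before one start, and its TGCGCA is a single site that falls 16 and 37 bases before another pair of starts and was counted in both windows. A match of letters describes the sequence and is not evidence of binding. Genes with a match did not pass the test between genotypes, with log2 fold changes of 0.0036 (Idh3b), 0.032 (Dlst), 0.029 (Idh3g), -0.085 (Ogdh) and 0.031 (Mdh2), and neither did those without one.

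Several members work as parts of a complex or in series, so the ratio of their counts within a library was compared, a measure that no scaling can alter. Over 10 ratios tested by an exact permutation test (two-sided, 3 against 3 libraries), the smallest p that the design allows is 0.1, and no ratio can pass 0.05. Idh3b to Idh3a was 1.03, 1.02 and 1.07 in wild-type and 1.10, 1.13 and 1.12 in knock-in, without overlap (exact p = 0.1, adjusted over the 10 ratios 0.25). Dlst to Ogdh was 0.223, 0.223 and 0.2295 in wild-type and 0.254, 0.240 and 0.238 in knock-in, also without overlap (exact p = 0.1, adjusted 0.25). Fh1 to Cs was 0.218, 0.226 and 0.224 against 0.235, 0.2298 and 0.231, again apart by a few percent. The ratio of Idh2, the NADP-dependent isocitrate dehydrogenase, to Idh3a was 2.67, 2.61 and 2.72 in wild-type and 2.77, 3.40 and 3.26 in knock-in, without overlap (exact p = 0.1, adjusted 0.25). The remaining 6 ratios overlapped, among them Idh3g to Idh3b (exact p = 1), Mdh2 to Cs (exact p = 0.5) and Sucla2 to Suclg2, the ATP-forming against the GTP-forming beta subunit (exact p = 0.5). Ratios with a gene in common are not independent of each other. Idh3a and Fh1, which separated on their own, are part of ratios that separated here. How often ratios separate over all pairs of genes was not computed. For single genes, 29.4% of all tested and 47.5% of those at least as abundant as the lowest member had ranges that did not overlap.

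**Figure D3:**
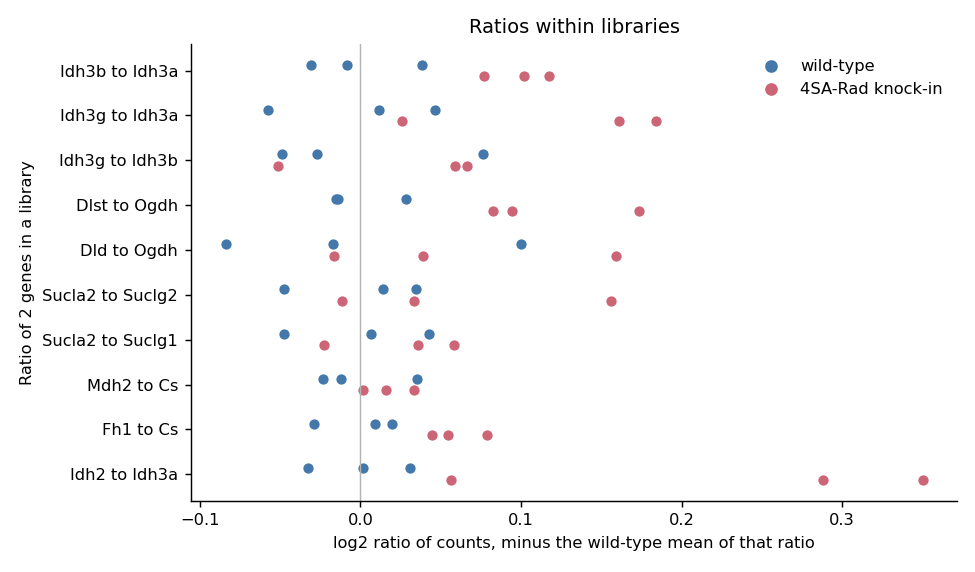
Dots are libraries, and the horizontal axis is the log2 ratio of the counts of 2 genes minus the wild-type mean of that ratio, for 3 wild-type and 3 knock-in mice. Idh3b to Idh3a, Dlst to Ogdh, Fh1 to Cs and Idh2 to Idh3a separate without overlap and the other 6 ratios do not. The share that separates over all pairs of genes was not computed.

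The other mitochondrial enzymes of the cycle were likewise not called by edgeR: 0 of 11 passed (1 at an unadjusted p below 0.05), with a median log2 fold change of -0.044. Dld, the dihydrolipoamide dehydrogenase that the oxoglutarate and pyruvate dehydrogenase complexes have in common, averaged 261 ± 5.57 CPM over wild-type and 256.5 ± 6.68 CPM over knock-in libraries (± SD, n = 3 each). Suclg1, the partner of Sucla2 in succinyl-CoA ligase, and Suclg2, the GTP-forming beta subunit, had log2 fold changes of -0.044 and -0.079 (edgeR adjusted p = 0.548 and 0.306). Ranges failed to overlap for these 2 of the 11 enzymes, both lower in knock-in, beside 15.1% of all tested genes. Sdha, the flavoprotein of succinate dehydrogenase, was at 855 ± 8.05 and 899.5 ± 34.2 CPM (edgeR adjusted p = 0.337). Idh2 was at 943, 904 and 921 CPM in wild-type and at 915, 1081 and 1054 CPM in knock-in. Knock-in replicate 1 lay inside the wild-type range, and Idh2 did not pass with all libraries (log2 fold change 0.14, edgeR adjusted p = 0.187) but passed without that replicate (0.21, edgeR adjusted p = 0.0244). Of 5 cytosolic counterparts and citrate exporters (Aco1, Idh1, Mdh1, Acly and Slc25a1) 0 were called, and 0 had an unadjusted p below 0.05; the smallest belonged to Acly, the citrate-cleaving enzyme (log2 fold change -0.063, edgeR adjusted p = 0.672).

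Over all 59 related genes listed beside the members, 2 rose and 5 fell, not far from the 9.01% of all tested genes called. Of 12 genes for entry and exit of intermediates, 2 rose, 1 fell and 9 did not pass, with a median log2 fold change of -0.019. Background shares were 4% of tested genes called higher and 5.01% called lower. Pccb, the beta subunit of propionyl-CoA carboxylase, was at 54.1, 57.4 and 58.1 CPM in wild-type and at 66.4, 72.7 and 66.3 CPM in knock-in. It rose by 21.1% (interval 11.6% to 31.3%, edgeR adjusted p = 0.0123), and passed in all 6 fits that left out a library. Mmut, the methylmalonyl-CoA mutase that delivers succinyl-CoA to the cycle, was at 71.6, 72.4 and 73.9 CPM in wild-type and at 87.4, 83.8 and 80.6 CPM in knock-in. It rose by 15.5% (interval 7.78% to 23.8%, edgeR adjusted p = 0.0207) and passed in 1 of those 6, the fit without knock-in replicate 1. The alpha subunit Pcca and the epimerase Mcee of the same route had log2 fold changes of -0.060 and -0.13 and did not pass. Oxct1, which spends succinyl-CoA to activate ketone bodies, was at 821, 789 and 795 CPM in wild-type and at 713, 728 and 724.5 CPM in knock-in. It fell by 9.98% (edgeR adjusted p = 0.0456) and passed in 0 of these 6, where the adjusted p ran from 0.0808 to 0.131.

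In the malate-aspartate shuttle, which carries reducing power between cytosol and matrix and includes Mdh2, 1 of 7 genes fell and 6 did not pass. The share called lower over all tested genes was 5.01%. Got1, the cytosolic aspartate aminotransferase, was at 449.6, 430.3 and 428 CPM in wild-type and at 365, 364 and 395 CPM in knock-in, without overlap. Its change of -14.1% (interval -20.2% to -7.54%, edgeR adjusted p = 0.0214) passed in 3 of these 6 fits; without wild-type replicate 1 or 3 or knock-in replicate 2 the adjusted p was 0.0614, 0.0522 and 0.0724. The mitochondrial partner Got2 was at 498.5 ± 4.45 and 502 ± 13.5 CPM. Cytosolic and mitochondrial malate dehydrogenase, Mdh1 and Mdh2, had log2 fold changes of 0.020 and 0.031.

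**Figure D4:**
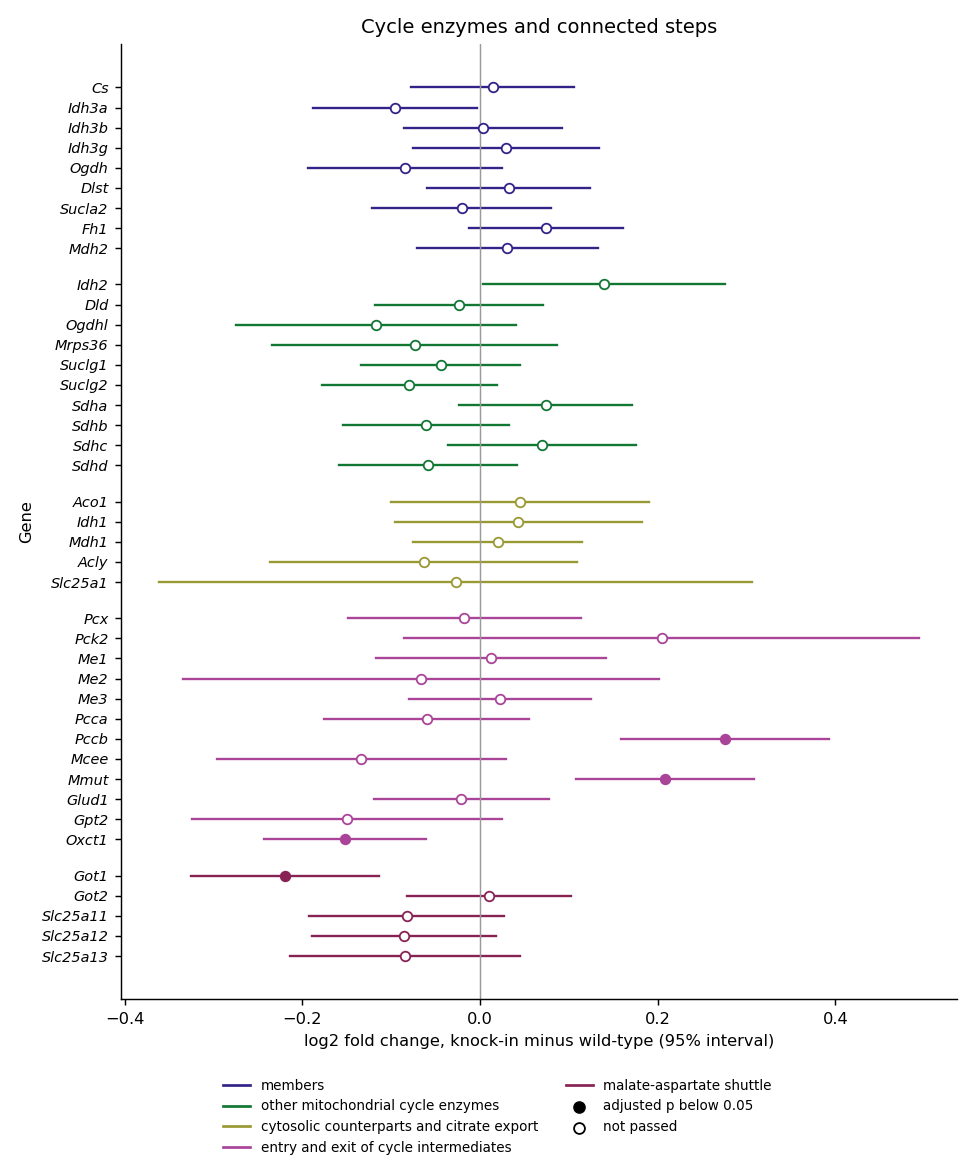
Points are log2 fold changes, knock-in minus wild-type, with 95% intervals from edgeR for the members, 10 of the other cycle enzymes and connected steps; filled points passed an adjusted p of 0.05. Mdh1 and Mdh2, also shuttle genes, are drawn in their first list. No cycle enzyme drawn is filled, and the filled points are Pccb, Mmut, Oxct1 and Got1.

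Enzymes of the cycle depend on cofactors made by other proteins, such as the lipoate on Dlst and the iron-sulfur clusters of succinate dehydrogenase, which is not among the members. Of 11 genes for the supply of lipoate, iron-sulfur clusters and thiamine, Bola3 fell and 10 did not pass, a share close to the 9.01% of all tested genes called. Bola3, which is needed for lipoate-bearing enzymes, was at 62.45, 62.9 and 59.3 CPM in wild-type and at 54.1, 54.0 and 53.1 CPM in knock-in (log2 fold change -0.19 ± 0.045 SE, edgeR adjusted p = 0.0254; passed in 2 of the 6 fits lacking a library). Of 4 assembly factors of succinate dehydrogenase, Sdhaf4 fell from 7.56 ± 0.0866 to 5.92 ± 0.271 CPM (edgeR adjusted p = 0.0304; passed in 1 of 6 such fits, and not with DESeq2, where the adjusted p was 0.104). The other 3 assembly factors did not pass, and 5.01% of all tested genes were called lower. The subunits Sdha, Sdhb, Sdhc and Sdhd of succinate dehydrogenase did not pass.

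Among 11 transcription factors and regulators of mitochondrial genes, Ppara fell and 10 did not pass, again close to the 9.01% of all tested genes, with a median log2 fold change of -0.092. Ppara, a nuclear receptor for genes of fat oxidation, was at 26.0, 29.1 and 30.3 CPM in wild-type and at 24.5, 19.3 and 22.8 CPM in knock-in (log2 fold change -0.36, edgeR adjusted p = 0.036; passed in 2 of the 6 fits lacking a library). The coactivator gene Ppargc1a was at 93.3, 89.5 and 140.9 CPM in wild-type and at 80.9, 79.8 and 79.2 CPM in knock-in. The ranges did not overlap, wild-type replicate 3 stood above all other libraries, and the gene did not pass (log2 fold change -0.43, edgeR adjusted p = 0.0811). Esrra, encoding an oestrogen-related receptor, had a log2 fold change of -0.092 (edgeR adjusted p = 0.347).

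Nnt, the transhydrogenase of the inner membrane that is damaged in C57BL/6J but not in C57BL/6N mice, was at 282, 272 and 262 CPM in wild-type and at 596, 730 and 716 CPM in knock-in (log2 fold change 1.32 ± 0.073 SE, edgeR adjusted p = 2.02e-05). It draws on NADH from the cycle to make NADPH. Wdfy1 and Entpd4, also known to differ between these substrains, passed as well, at log2 fold changes of 1.49 and -1.04. The labels give C57BL/6N for all 6 mice, and the substrain was not tested beyond these transcripts. If the genotypes do differ in substrain background, its part and that of the knock-in allele cannot be told apart for any difference given here, Pccb, Mmut, Oxct1 and Got1 included.

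The 5 tested genes nearest to the mean profile of the members were sought among 309 others with a mean CPM of at least 185, by root mean square distance of centred log2-CPM over the 6 libraries. They were Uqcrh, a subunit of respiratory complex III (distance 0.00901), Ghitm (0.0129), Etfa, an electron carrier of fat oxidation (0.0135), Ppp1r12b (0.0141) and Atp5c1, a subunit of ATP synthase (0.0172). The median distance of all 309 was 0.0685. The members themselves lay 0.0149 (Cs) to 0.0553 (Ogdh) from their own mean, which varied between -0.020 and 0.024 over the libraries. With so flat a mean, abundant genes that varied little over the libraries lie near it. The share of mitochondrial genes among the 309 was not counted.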

How the data were processed

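RNA was isolated with on-column DNase treatment and turned into stranded total-RNA libraries, per the labels' protocols. The deposited table holds estimated counts per gene symbol that the authors made with bcl2fastq 2.19 and kallisto 0.44.0 on GRCm38, per the submitters' processing notes. All values are whole. The step from transcripts to symbols is not given in the sources used here. Reads of near-identical transcripts are divided by probability in such estimates, so low copies are uncertain.

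Counts were rounded and analysed with edgeR 4.0.16 in R 4.3.3: filterByExpr (13485 genes, 99.96% of counts), TMM, glmQLFit and glmQLFTest on genotype with no covariate, and Benjamini-Hochberg adjustment over all genes tested. Standard errors are the fold change divided by the square root of F. A gene is called, and rose or fell is written, at an adjusted p below 0.05. The script was tested on simulated data. Libraries within a genotype differed well beyond sampling noise (chi-square per degree of freedom 8.40 or more) and all 6 were used as separate mice. No batch, date or shared replicate number is in the labels. Alternatives were DESeq2 1.42.0, limma-voom (limma 3.58.1), other scalings, removal of mitochondrial-genome transcripts, other filters, robust dispersions and each library left out.

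The members, lists and motifs were chosen with earlier results of these data known. Named genes are all 9 members, the called genes of each list, otherwise those with the smallest p, Dld, Suclg1, Suclg2, Sdha and Nnt, and the 5 nearest profiles; other genes named were chosen after their values were seen. Not every gene that this rule picks is reported here.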

Additional observations from a re-analysis of the deposited data

How the results depend on the processing

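No member was called under any of the 9 other settings or the 6 fits that left out a library. With library size alone, the estimates of Cs (-0.068), Idh3b (-0.079), Idh3g (-0.053), Dlst (-0.051), Fh1 (-0.0091), Mdh2 (-0.052) and Sdha (-0.0082) turned below 0 on the log2 scale; the median of all genes moved to -0.078 in that setting. Leaving out libraries moved the estimates between -0.010 and 0.013 for Idh3b and between -0.051 and 0.0080 for Sucla2. Over all genes, library size alone gave 227 higher and 1177 lower calls, against 540 and 675. Leaving out a library gave 338 to 1378 calls in all, 136 to 601 higher and 202 to 777 lower, with fewest without knock-in replicate 3. The 7 calls among the 59 related genes, a share near that of all tested genes, became 1 to 8 when a library was left out. With library size alone Pccb and Mmut did not pass (edgeR adjusted p = 0.0781 and 0.175), nor did Oxct1 with upper-quartile factors (0.0837). The cause of these changes was not tested, and fits without a library have fewer mice. Ratios within libraries moved by less than their spread when a library was left out. No paired analysis was possible because the labels give the genotypes no replicate number in common. With 3 mice per genotype, the intervals of the members set what could be seen.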

Other observations

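The rise of Pccb and Mmut led to a look at the catabolism of branched-chain amino acids and propionate, whose end products enter the cycle as acetyl-CoA and succinyl-CoA. This list of 26 genes was written after values had been seen, and its count is a description. Of the 26, 6 rose, none fell and 20 did not pass edgeR's test. The 6 include Pccb and Mmut, which prompted the list, so the count is not set against the 4% of all tested genes called higher. The median log2 fold change was -0.014. Ppm1k, the phosphatase that activates the branched-chain ketoacid dehydrogenase, rose from 62.7 ± 2.05 to 82.0 ± 1.22 CPM (mean ± SD, n = 3 each; edgeR adjusted p = 0.00113) and passed in all 6 fits that left out a library and all 9 other settings. Ivd, an enzyme of leucine breakdown, rose from 225 ± 0.565 to 259 ± 2.08 CPM (edgeR adjusted p = 0.0132) and passed in 5 of those 6 fits, not without knock-in replicate 3 (0.0634). Mccc2, also of leucine breakdown, and Acat1, which acts on isoleucine products and ketone bodies, rose by 0.26 and 0.18 on the log2 scale and passed in 2 and 0 of the 6 fits. The subunits of the dehydrogenase itself did not pass, at log2 fold changes of -0.0032 for Bckdha, 0.054 for Bckdhb and 0.15 for Dbt, nor did the inhibiting kinase Bckdk (-0.054). Ranges did not overlap for 9 of the 26 with knock-in higher and for 3 with knock-in lower. The 9 include Pccb and Mmut, so that count is not set against the 14.3% of all tested genes. Beside the 6 called genes, the 9 held Dbt, Mccc1 and Acadsb, at 0.15, 0.12 and 0.10, which did not pass. The 3 lower, beside 15.1% of all tested genes, were Hibch, Auh and Mmaa, at -0.14, -0.13 and -0.10, and did not pass. The count of 6 became 2 without knock-in replicate 3, and 3 without knock-in replicate 2 or either of wild-type replicates 2 and 3. With library size alone 2 of the 26 were called in either direction, and of the 6 only Ppm1k passed.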
